A study of Mus musculus with 20 samples.

Results

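The genes described here are the 37 genes of the mouse mitochondrial genome, taken as every gene that the deposited count table and its annotation place on chromosome M of mm10, of 55401 genes in the table. They comprise 2 ribosomal RNA (rRNA) genes, 13 protein-coding genes and 22 transfer RNA (tRNA) genes, all with symbols that begin with mt-. Of these, 31 had at least 1 count in 20 liver libraries, and 6 tRNA genes had none. The mitochondrial genome is a small circle that is transcribed from both strands into long precursors, from which the tRNAs are cut out and the messenger and ribosomal RNAs are released. Its proteins are core subunits of the respiratory chain and of ATP synthase, and they are made on ribosomes built around its own rRNAs. Every other protein of the organelle, including those that copy, transcribe and translate this genome, is encoded in the nucleus, and liver cells are rich in mitochondria.

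Liver RNA was sequenced from C57BL/6 mice with the genotype label WT that received either a standard rodent chow (chow 1 to chow 10) or fat-rich food (the high-fat diet, HFD; samples HFD 1 to HFD 10), with 1 library per sample. The HFD held 60% fat, 20% carbohydrate and 20% protein and was given for 12 weeks. The design text speaks of 3 groups on the HFD, whereas all 10 HFD samples carry the same labels and were treated as 1 group. No substrain, age, batch or cage is given, and the labels do not say whether every library stands for its own mouse, so the spread behind the p-values may be technical. The comparison asks how the RNAs of the mitochondrial genome differed between livers on the HFD and livers on chow. In bulk liver RNA, fewer cells of a type and less RNA per cell cannot be told apart.

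Library totals ranged from 20111896 to 90033879 counts, and HFD 1 and HFD 2 stood apart from the other 18 libraries. Chromosome M supplied 1.71% to 3.10% of the counts in chow (median 2.29%) and 1.34% to 2.54% in HFD 3 to HFD 10 (median 1.88%). It supplied 75.6% in HFD 1 (95% Wilson interval 75.56% to 75.60%) and 94.4% in HFD 2 (94.43% to 94.44%), intervals that cover counting error only. Without annotated nuclear rRNA, 2237670 nuclear counts remained in HFD 1 and 2860976 in HFD 2, against 26735737 or more elsewhere. Nuclear rRNA accounted for 20.4% of chow 9 and 13.3% of HFD 1, and at most 0.807% of any other library. The 8 hepatocyte markers, all detected, summed to 74704 to 130424 counts per 1000000 nuclear counts in the 18 libraries, to 36018 in HFD 1 and to 37078 in HFD 2. The 5 erythroid markers reached at most 2457 in the 18 libraries, 7400 in HFD 1 and 21253 in HFD 2. The 5 striated muscle markers reached at most 16.1 in the 18 libraries and were at 248 in HFD 1 and 2.45 in HFD 2, and the 3 kidney markers, Kap at 0 in all 20, summed to 0.0418 or less. The 5 nuclear-retained long noncoding RNAs, Malat1 and Neat1 among them, summed to 5.24 to 21.7 in the 18 libraries, to 593 in HFD 1 and to 672 in HFD 2. Of 22 RNAs without a poly(A) tail 10 were at 0 in all libraries, and the list summed to 148 to 279 in the 18 libraries, to 543 in HFD 1 and to 312 in HFD 2. The part that these differences in content play in the values of HFD 1 and HFD 2 was not tested.

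**Figure D1:**
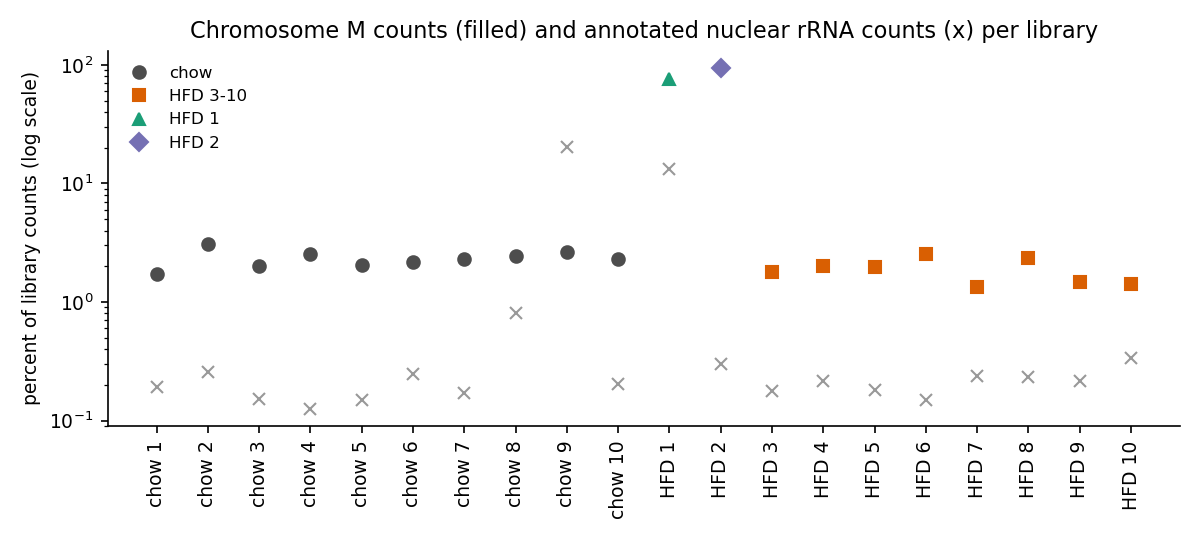
Percent of the counts of each library that came from chromosome M (filled symbols) and from annotated nuclear rRNA genes (crosses), on a log scale, for the 10 chow and 10 HFD libraries. HFD 1 and HFD 2 sit at 75.6% and 94.4% chromosome M counts, while the other 18 libraries lie between 1.34% and 3.10%. Chow 9 and HFD 1 carry the most nuclear rRNA.

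The sharpest difference between the chow and HFD libraries lay in mt-Nd3 and in its near-identical copy in the nuclear genome. mt-Nd3 encodes a subunit of complex I (NADH dehydrogenase). In chow nearly all counts of the pair were assigned to the nuclear copy, the unprocessed pseudogene Gm28438, and in 9 of 10 HFD libraries nearly all were assigned to mt-Nd3. HFD 6 was the exception and resembled the chow libraries. The reference sequences of mt-Nd3 (chromosome M, 9459 to 9806, plus strand) and Gm28438 (chromosome 1, 24612775 to 24613119, minus strand, GRCm38, the assembly also called mm10) differ at 1 of 345 aligned bases. That difference is T3C, counted from 1 at the 5′ end of mt-Nd3, with the base of mt-Nd3 first, at position 9461 of chromosome M. The first 90 bases of both are shown because they hold this base, which is in capitals, and they come from the GENCODE M21 transcripts.
mt-Nd3, chrM:9459-9548, plus strand: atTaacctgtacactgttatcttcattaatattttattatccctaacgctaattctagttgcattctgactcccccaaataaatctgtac
Gm28438, chr1:24613030-24613119, minus strand: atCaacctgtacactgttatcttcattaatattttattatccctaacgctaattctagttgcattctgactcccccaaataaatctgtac
From the base after it onward the aligned sequences are the same letter for letter.

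mt-Nd3 had 1 to 12 counts per library in chow (median 4), 10 in HFD 6, 46 to 182 in the other 7 libraries of HFD 3 to HFD 10 (median 129), 2546 in HFD 1 and 5491 in HFD 2. Gm28438 had 255 to 559 counts in chow (median 366), 188 in HFD 6, 2 to 7 in the other 7 libraries (median 4), 251 in HFD 1 and 297 in HFD 2. The 2 genes thus changed places in 9 of 10 HFD libraries. Of the counts of the pair, mt-Nd3 held 0.391% to 3.21% in chow (median 1.09%), 5.05% in HFD 6, 92.0% to 98.9% in the other 7, 91.0% in HFD 1 and 94.9% in HFD 2. No HFD library overlapped the chow range of this percentage, although HFD 6 lay close to it. The sum of the pair was 286 to 501 per 1000000 chromosome M counts in chow (median 379), 155 in HFD 6, 61.5 to 166 in the other 7, 184 in HFD 1 and 113 in HFD 2. All 10 HFD libraries were therefore below all 10 chow libraries in the sum, HFD 6 included.

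As a share of chromosome M counts, mt-Nd3 was at 0.000127% to 0.00147% in chow (median 0.000399%). It was at 0.000782% to 0.0161% in HFD 3 to HFD 10 (median 0.0115%), at 0.0167% in HFD 1 and at 0.0107% in HFD 2. These shares were tested with an edgeR quasi-likelihood fit of the whole table in which the library size was the chromosome M total, with Benjamini-Hochberg adjustment over all genes tested and a call at an adjusted p under 0.05. The mt-Nd3 share rose, with a log2 change of 4.39 (SE 0.95, adjusted p = 0.00139), and by 4.30 without HFD 1 and HFD 2 (SE 0.48, adjusted p = 1.21e-07). In the same fits the Gm28438 count fell relative to chromosome M by 4.19 on the log2 scale (adjusted p = 0.000848), and by 3.98 without HFD 1 and HFD 2 (adjusted p = 0.000546). mt-Nd3 passed the filter on low counts mainly through the HFD libraries and Gm28438 mainly through chow, in each case where it was high. These p-values are therefore no evidence of a difference beyond the counts per library given above. In 9 of 10 HFD libraries the mt-Nd3 share exceeded that of every chow library, in a fit of 20 libraries that called 0.743% of the genes tested higher and 0.117% lower.

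The other chromosome M genes with a copy in the same stretch of chromosome 1 split less sharply. mt-Nd4l, a further subunit of complex I (chromosome M, 9877 to 10173), and Gm10222 have the same letters at all 294 aligned bases. mt-Nd4l had 0 to 3 counts in chow, 0 in HFD 6, 2 to 15 in the other 7 of HFD 3 to HFD 10, 118 in HFD 1 and 556 in HFD 2, while Gm10222 had 9 to 27 in chow, 17 in HFD 6 and 0 to 2 in those 7. The mt-Nd4l percent of this pair was 0% to 18.2% in chow, 0% in HFD 6 and 66.7% to 100% in the other 9 HFD libraries. mt-Co3, which encodes a subunit of complex IV (cytochrome c oxidase; chromosome M, 8607 to 9390), held 21.6% to 36.1% of its pair with Gm28437 in chow, 32.1% in HFD 6 and 46.0% to 68.8% in the other 9. HFD 6 was again inside the chow range, and the other 9 HFD libraries were above it. Gm28437 and mt-Co3 have the same letters at all 783 aligned bases. For mt-Atp6, a subunit of ATP synthase, with Gm10925, and for mt-Co2, a catalytic subunit of complex IV, with Gm28661, the diets overlapped (22.7% to 66.7% in chow against 9.09% to 85.7% in HFD, and 0% to 65.0% against 9.09% to 61.1%). In HFD 3 to HFD 10 against chow, the levels of 4 copies fell with TMM scaling: Gm28438 by 4.26 (adjusted p = 0.000239), Gm10222 by 3.12 (adjusted p = 0.000789), Gm28437 by 1.75 (adjusted p = 4.20e-05) and Gm29216, the copy of part of mt-Co1, by 1.04 on the log2 scale (adjusted p = 0.00491, edgeR). In that fit 10.4% of all genes tested were called lower. Gm28438 and Gm10222 passed the filter on low counts mainly through chow, where they were high, so their p-values add no independent evidence.

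**Figure D2:**
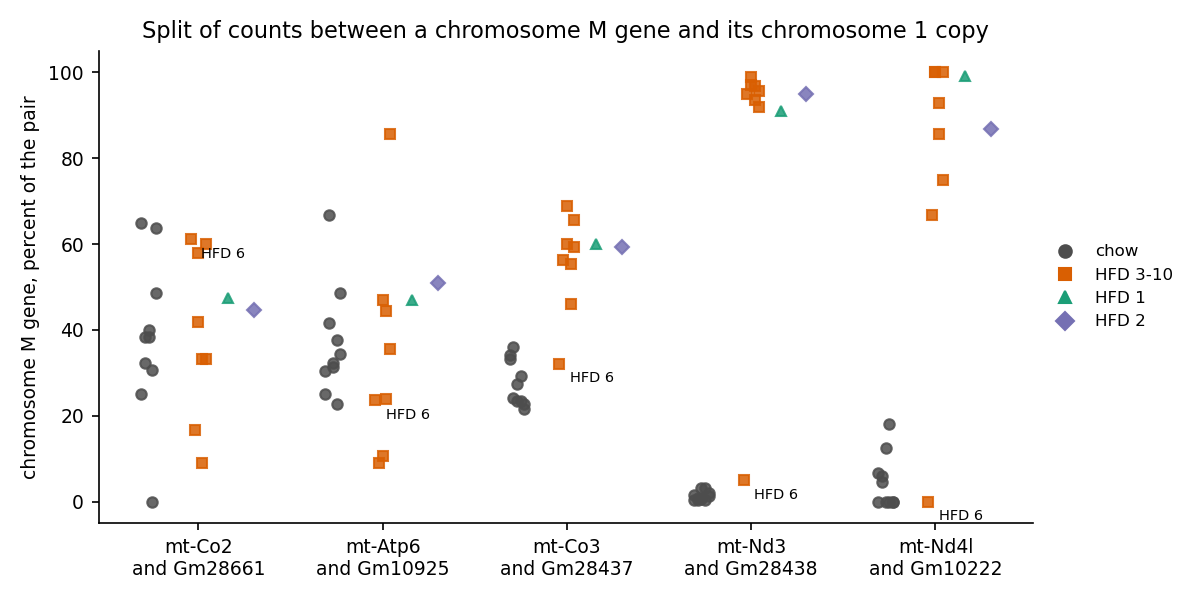
Counts of a chromosome M gene as a percent of the counts of that gene and its chromosome 1 copy together, for 5 pairs, with 1 point per library and HFD 6 named. For mt-Nd3 the chow libraries lie at 3.21% or less and HFD 6 at 5.05%, while the other 9 HFD libraries lie at 91.0% or more. For mt-Co2 and mt-Atp6 the diets overlap.

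Apoe, which encodes apolipoprotein E and lies on a nuclear chromosome, separated HFD 6 from the other HFD libraries in the same way. It was at 16622 to 19151 counts per 1000000 nuclear counts in chow, at 15062 in HFD 6 and at 17.2 to 1268 in the other 9 HFD libraries. The tables hold counts and no base calls, so which base the reads carried at position 9461 was not tested. The relation between the split of the pair, the Apoe level and the HFD groups of the design text was not tested either. The same 9 HFD libraries differed from chow in both, and HFD 6 carries the same diet label. Food and any other difference between the mice of the groups therefore cannot be told apart, here or in the other comparisons of the diets.

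mt-Nd3 belongs to a run of 6 consecutive protein-coding genes, mt-Co2, mt-Atp8, mt-Atp6, mt-Co3, mt-Nd3 and mt-Nd4l (chromosome M, 7013 to 10173), that together held 15952 of 84695890 chromosome M counts. Their summed share was 0.00405% to 0.00825% in chow (median 0.00604%), 0.00626% to 0.0245% in HFD 3 to HFD 10 (median 0.0178%), 0.0279% in HFD 1 and 0.0190% in HFD 2. The other 7 protein-coding genes held 69.6% to 97.7% of chromosome M counts in every library. The 6 genes were low in all 20 libraries, including those where chromosome M took most of the counts.

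The same run is where the mitochondrial sequence recurs in annotated nuclear transcripts. Of all 50-base windows of a gene, the share found without mismatch on either strand in a nuclear GENCODE M21 transcript was 100% for mt-Co2, 99.5% for mt-Atp6, 99.9% for mt-Co3, 98.0% for mt-Nd3 and 98.8% for mt-Nd4l. It was 62.2% for mt-Nd4 and 51.1% for mt-Co1, the genes on either side of the run, and 8.19% for mt-Nd2, 7.61% for mt-Nd5 and 1.04% for mt-Rnr2. It was 0% for mt-Rnr1, mt-Nd1, mt-Nd6, mt-Cytb and every tRNA gene. mt-Atp8, the small subunit of ATP synthase (chromosome M, 7766 to 7969), was as low as its neighbours, at 0 to 7 counts per library outside HFD 1 (9) and HFD 2 (98), but shared no window with an annotated transcript. It overlaps mt-Atp6 by 43 bases. Windows were matched to annotated transcripts alone, so nuclear sequence outside them was not analysed here. The 7 annotated copies lie in a row on chromosome 1, from 24611535 to 24616197, and read along the minus strand they follow the order of their chromosome M partners. How the counting treated reads that match both places is not given in the sources used here, and the values of these genes are uncertain.

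**Figure D3:**
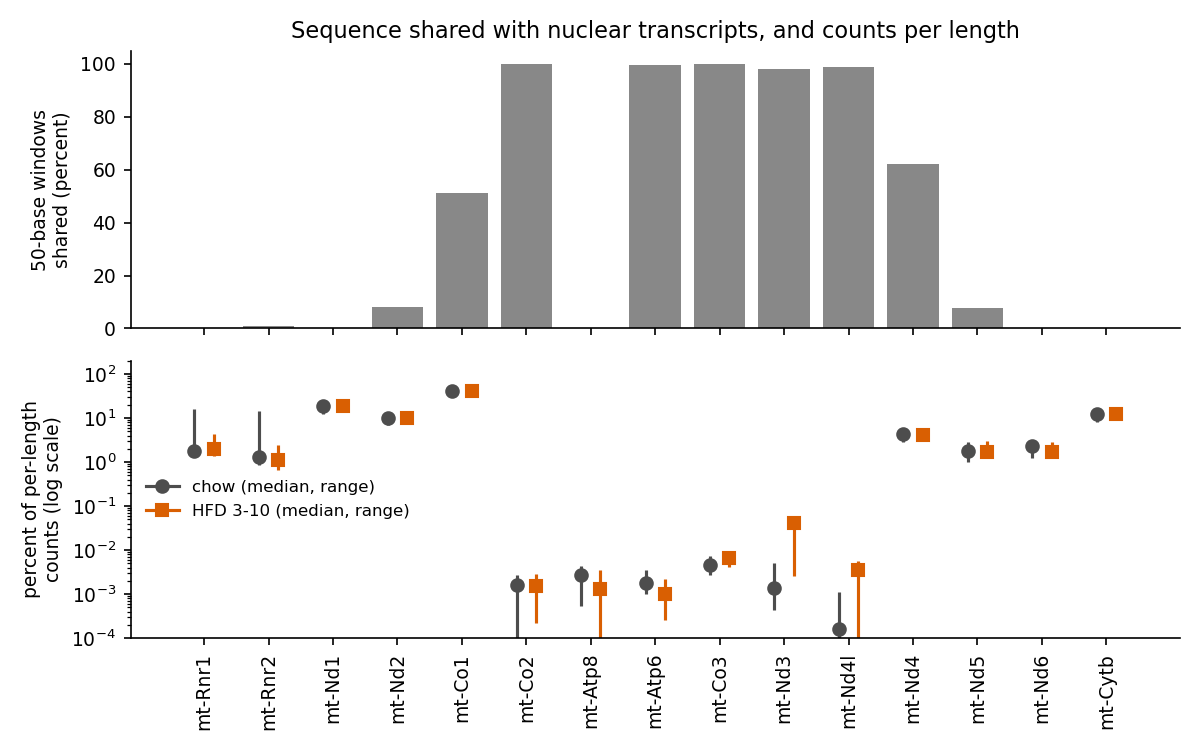
Upper panel, percent of 50-base windows of each rRNA and protein-coding gene found in annotated nuclear transcripts; lower panel, counts divided by gene length, as a percent of the sum over chromosome M (log scale; points are medians, lines span lowest to highest library, and lines that reach 0 stop at the axis). Genes run in chromosome M order. The run from mt-Co2 to mt-Nd4l has 98.0% to 100% shared windows except for mt-Atp8 (0%), and all 6 genes sit well below the rest.

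The same 4 genes, mt-Co1, mt-Nd1, mt-Cytb and mt-Nd2, led the chromosome M counts per length in chow, in HFD 3 to HFD 10, in HFD 1 and in HFD 2. Per length, mt-Co1, the main catalytic subunit of complex IV, led in chow with a median of 41.6% of the per-length counts of chromosome M (32.7% to 50.8%). mt-Nd1 followed at 18.3% (12.6% to 20.4%), mt-Cytb at 12.5% (8.20% to 13.6%), mt-Nd2 at 10.0% (6.76% to 11.3%), mt-Tp at 5.31% (3.98% to 6.73%) and mt-Nd4 at 4.24% (2.87% to 4.66%). The ranges of mt-Co1 and mt-Nd1 did not overlap, while those of mt-Nd1 and mt-Cytb, of mt-Cytb and mt-Nd2, and of mt-Tp and mt-Nd4 did. mt-Nd6 at 2.26%, mt-Rnr1 at 1.82%, mt-Nd5 at 1.82% and mt-Rnr2 at 1.28% had overlapping ranges. In HFD 3 to HFD 10 the order of the leading genes was the same, with medians of 41.4% for mt-Co1, 18.9% for mt-Nd1, 12.6% for mt-Cytb and 10.1% for mt-Nd2. In HFD 1 these genes stood at 33.8%, 19.03%, 13.8% and 11.3%, and in HFD 2 at 45.8%, 16.8%, 12.1% and 12.2%, respectively.

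The rRNA genes encode the 12S (mt-Rnr1; chromosome M, 70 to 1024) and 16S (mt-Rnr2; 1094 to 2675) RNAs of the mitochondrial ribosome. mt-Rnr1 made up 1.04% to 12.3% of chromosome M counts in chow (median 1.43%), 1.14% to 3.42% in HFD 3 to HFD 10 (median 1.53%), 3.25% in HFD 1 and 1.25% in HFD 2. mt-Rnr2 made up 1.09% to 17.9% in chow (median 1.67%), 0.936% to 3.13% in HFD 3 to HFD 10 (median 1.44%), 2.88% in HFD 1 and 0.902% in HFD 2. Both highest chow values were those of chow 9, the library with 20.4% nuclear rRNA, and the other 9 chow libraries lay at 1.73% or less and 2.03% or less. The ratio of mt-Rnr1 to mt-Rnr2 counts, singled out after its values were seen, was 0.684 to 0.959 in chow, 0.944 to 1.41 in HFD 3 to HFD 10, 1.13 in HFD 1 and 1.38 in HFD 2. It lay above the chow range in 9 of 10 HFD libraries, and chow 9 had the lowest ratio of all 20, 0.684.

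Of the 7 complex I genes, mt-Nd1, mt-Nd2, mt-Nd4, mt-Nd5 and mt-Nd6 were well counted, and all encode membrane subunits of the enzyme. mt-Nd1 (chromosome M, 2751 to 3707) made up 9.75% to 16.05% of chromosome M counts in chow (median 14.3%), 13.4% to 22.6% in HFD 3 to HFD 10 (median 14.8%), 15.1% in HFD 1 and 12.6% in HFD 2. Its highest value was that of HFD 6. mt-Nd2 (3914 to 4951) made up 5.56% to 9.62% in chow (median 8.56%), 6.88% to 10.4% in HFD 3 to HFD 10 (median 8.83%), 9.78% in HFD 1 and 9.93% in HFD 2. mt-Nd4 (10167 to 11544) made up 3.19% to 5.36% in chow (median 4.78%), 3.97% to 6.02% in HFD 3 to HFD 10 (median 4.51%), 9.04% in HFD 1 and 4.82% in HFD 2. HFD 1 was above every other library for mt-Nd4, and otherwise the diets overlapped for these 3 genes. mt-Nd5 (11742 to 13565) made up 1.46% to 4.35% in chow (median 2.73%), 1.80% to 4.44% in HFD 3 to HFD 10 (median 2.58%), 1.70% in HFD 1 and 2.97% in HFD 2. mt-Nd6 (13552 to 14070), the only protein-coding gene annotated on the minus strand, made up 0.518% to 1.21% in chow (median 0.955%), 0.511% to 1.24% in HFD 3 to HFD 10 (median 0.723%), 1.53% in HFD 1 and 0.833% in HFD 2. mt-Nd5 and mt-Nd6 overlap by 14 bases on opposite strands, and whether the counting used strand is not given, so reads of mt-Nd6 and of transcripts that run opposite to it cannot be told apart.

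mt-Cytb (14145 to 15288) encodes cytochrome b, the only subunit of complex III made in the mitochondrion. It made up 7.57% to 12.7% of chromosome M counts in chow (median 11.8%), 9.88% to 13.7% in HFD 3 to HFD 10 (median 11.7%), 13.1% in HFD 1 and 10.9% in HFD 2. mt-Co1 (5328 to 6872) made up 40.8% to 62.3% in chow (median 52.6%), 46.3% to 58.7% in HFD 3 to HFD 10 (median 52.3%), 43.4% in HFD 1 and 55.6% in HFD 2. For both genes HFD 1 and HFD 2 lay within the range of the other 18 libraries. Of the 3 complex IV and 2 ATP synthase genes, the other 4 belong to the run near the floor. mt-Co3 had the most counts of those, 16 to 43 in chow and 18 to 55 in HFD 3 to HFD 10, with 970 in HFD 1 and 2345 in HFD 2. mt-Co2 had 0 to 16 counts in chow and 1 to 22 in HFD 3 to HFD 10, and mt-Atp6 had 5 to 20 and 1 to 15.

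The 22 tRNA genes together made up 0.224% to 0.409% of chromosome M counts in chow (median 0.301%), 0.206% to 0.489% in HFD 3 to HFD 10 (median 0.268%), 0.172% in HFD 1 and 0.115% in HFD 2. HFD 1 and HFD 2 had the lowest tRNA shares of all libraries. mt-Tp, the tRNA for proline (chromosome M, 15356 to 15422, minus strand), held 96.8% of all tRNA counts, and mt-Tc (cysteine, 5192 to 5257, minus strand) and mt-Tn (asparagine, 5089 to 5159, minus strand) followed. The 3 sequences are shown, with the anticodon in capitals and as the GENCODE M21 transcripts give them, because they are the tRNA genes with enough counts to be tested.
mt-Tp: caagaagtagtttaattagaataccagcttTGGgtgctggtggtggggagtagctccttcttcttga
mt-Tc: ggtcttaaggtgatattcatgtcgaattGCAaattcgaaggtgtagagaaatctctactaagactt
mt-Tn: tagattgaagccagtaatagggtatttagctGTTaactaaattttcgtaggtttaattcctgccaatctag
mt-Tp made up 0.215% to 0.383% of chromosome M counts in chow (median 0.290%), 0.201% to 0.485% in HFD 3 to HFD 10 (median 0.261%), 0.167% in HFD 1 and 0.111% in HFD 2. mt-Tc made up 0.00219% to 0.0183% in chow (median 0.00645%), 0.00183% to 0.00431% in HFD 3 to HFD 10 (median 0.00309%), 0.00229% in HFD 1 and 0.00132% in HFD 2. mt-Tn made up 0.00102% to 0.00575% in chow (median 0.00290%), 0.00102% to 0.00258% in HFD 3 to HFD 10 (median 0.00198%), 0.000928% in HFD 1 and 0.000673% in HFD 2. The diets overlapped for all 3, with HFD 1 and HFD 2 below every other library for mt-Tp and mt-Tn. mt-Tq, the tRNA for glutamine, had 0 to 8 counts in chow, 0 to 11 in HFD 3 to HFD 10, 87 in HFD 1 and 448 in HFD 2. A further 10 tRNA genes had 1 to 99 counts over all libraries together. The 6 with none, mt-Tf, mt-Td, mt-Tk, mt-Tg, mt-Tr and mt-Ts2, are tRNA genes for phenylalanine, aspartate, lysine, glycine, arginine and serine, and 0 of 84695890 counts allows a share of up to 3.54e-06% each. HFD 1 and HFD 2 supplied most of that total, and in the 18197260 counts of the other 18 libraries a count of 0 allows up to 1.65e-05%. tRNAs are short and modified and carry no poly(A) tail, and the library protocol is not given beyond the extraction of total RNA.

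**Figure D4:**
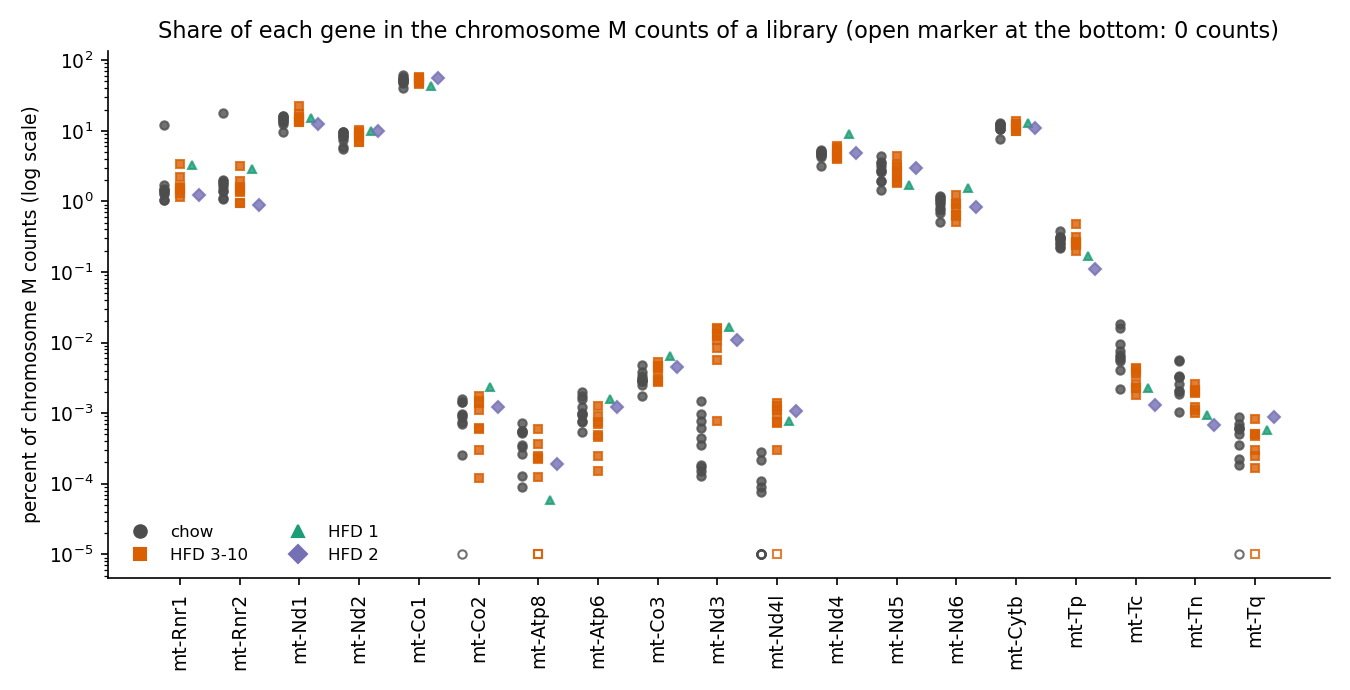
Share of each rRNA gene, protein-coding gene and named tRNA gene in the chromosome M counts of a library, in percent on a log scale, with 1 point per library (chow, HFD 3 to HFD 10, HFD 1, HFD 2; an open marker at the bottom stands for 0 counts). The rRNA genes and the 7 well-counted protein-coding genes overlap between diets, the run from mt-Co2 to mt-Nd4l lies far below them, and mt-Nd3 and mt-Nd4l are higher in HFD than in chow except in HFD 6.

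Of 14 genes outside the run with a mean of at least 10 counts, the share in HFD 1 lay inside the range of the other 18 libraries for 9, above it for 3 and below it for 2. The 3 above were mt-Nd4, mt-Nd6 and mt-Te (the tRNA for glutamate, named after its values were seen), and the 2 below were mt-Tn and mt-Tp. mt-Te had 0 to 8 counts in chow, 0 to 2 in HFD 3 to HFD 10, 229 in HFD 1 and 257 in HFD 2. Both mt-Te and mt-Tq reached the mean of 10 only through HFD 1 and HFD 2, so their positions are no evidence of a difference. In HFD 2 the share lay inside the range for 10 and below it for 4, which were mt-Rnr2, mt-Tn, mt-Tc and mt-Tp.

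Of the 37 genes, 16 passed the filter on low counts and were tested (2 rRNA, 11 protein-coding and 3 tRNA genes), and 21 were not, among them mt-Atp8 and mt-Nd4l. In the fit of shares over all 20 libraries, 1 of the 16, mt-Nd3, was higher in HFD and 0 were lower, beside the 0.743% and 0.117% of all 14542 genes tested. mt-Nd3 passed the filter mainly through the HFD libraries, where it was high. Its calls here and in the fits of levels are therefore no independent evidence of a difference. At an unadjusted p under 0.05 the count lower was also 0 with edgeR, and DESeq2 called 1 lower, mt-Tc. The other 15 genes did not pass with edgeR, and their log2 changes of share ranged from -1.53 (mt-Tc) to 0.45 (mt-Co3). Standard errors in that fit ran from 0.75 (mt-Tp) to 0.95 (mt-Nd3). For mt-Co1 the standard error was 0.83, against 0.18 without HFD 1 and HFD 2. The count of 0 lower therefore does not show that the shares of the other genes were unchanged. With HFD 1 and HFD 2 left out, mt-Nd3 was again higher and mt-Tc fell, with a log2 change of -1.39 (SE 0.34, adjusted p = 0.00201), where 49.6% of 14842 genes were called higher and 1% lower. The median change was 0.00 on the log2 scale over the 16 genes and 0.52 over all genes in that fit, since chromosome M itself served as the scale. The mt-Co1 share moved by 0.00 (SE 0.18), the mt-Nd1 share by 0.17 (SE 0.18), the mt-Cytb share by 0.04 (SE 0.17) and the mt-Nd2 share by 0.08 (SE 0.18) on the log2 scale. The mt-Rnr2 share moved by -0.999 (SE 0.57, adjusted p = 0.143, edgeR), and without chow 9 as well by 0.03.

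**Figure D5:**
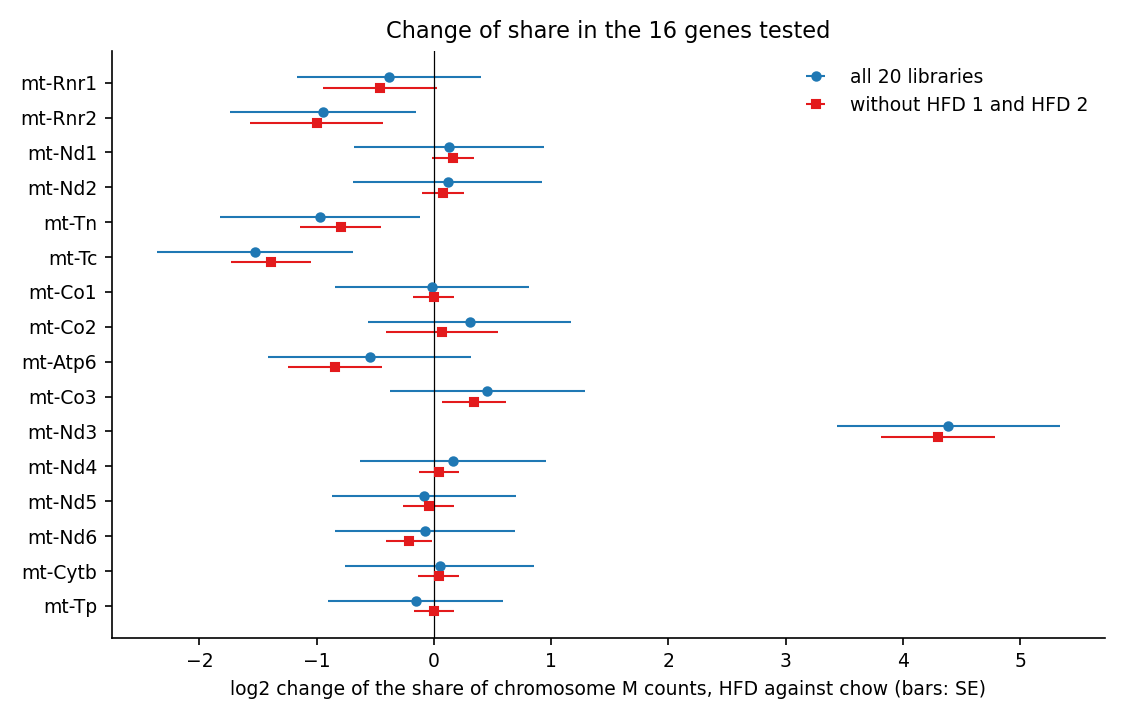
Log2 change of the share of chromosome M counts, HFD against chow, for the 16 genes tested, with all 20 libraries (circles) and without HFD 1 and HFD 2 (squares); bars are standard errors. mt-Nd3 stands at 4.39 and 4.30, and mt-Tc at -1.53 and -1.39. The errors are wider with HFD 1 and HFD 2 in the fit.

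Relative to nuclear RNA, the direction depended on HFD 1 and HFD 2. Over all 20 libraries with TMM scaling, 16 of the 16 genes were called higher in HFD and 0 lower (edgeR; also 0 lower at an unadjusted p under 0.05, and 6 lower with DESeq2), where 13% of the 14542 genes tested were called higher and 7.05% lower. Their log2 changes ran from 3.80 (mt-Tc) to 10.71 (mt-Nd3), with a median of 6.10 against 0.02 over all genes. Chromosome M held 6793 counts per 1000 nuclear counts in HFD 1 and 17930 in HFD 2, against 17.5 to 34.1 in chow (median 23.5) and 13.6 to 26.1 in HFD 3 to HFD 10 (median 19.2). Without HFD 1 and HFD 2, 1 gene was higher, mt-Nd3, and 9 were lower, where 17.9% of 14842 genes were called higher and 10.4% lower. The median over the 16 genes was then -0.47, against 0.03 over all genes.

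The 9 genes that fell without HFD 1 and HFD 2 spanned complexes I, III, IV and V, 1 rRNA and 2 tRNAs. mt-Co1 stood at 9514 to 19960 counts per 1000000 nuclear counts in chow (median 12585) and at 6485 to 12160 in HFD 3 to HFD 10 (median 10003). It fell, with a log2 change of -0.52 (SE 0.17, adjusted p = 0.0293). mt-Cytb stood at 1873 to 3365 in chow (median 2666) and at 1432 to 2918 in HFD 3 to HFD 10 (median 2375), and fell by 0.45 (SE 0.14, adjusted p = 0.0239). The diets overlapped for both. For mt-Cytb, HFD 7 (1723), HFD 9 (1505) and HFD 10 (1432) lay below the chow range, and for mt-Co1 these libraries and HFD 3 did. The other libraries of HFD 3 to HFD 10 lay inside it. For mt-Nd4, HFD 9 and HFD 10 alone lay below the chow range. HFD 9 and HFD 10 were also the deepest libraries, with 90033879 and 83949845 counts, and the part of depth in these levels was not tested. mt-Nd2 fell by 0.38 (adjusted p = 0.0427), mt-Nd4 by 0.46 (adjusted p = 0.0189) and mt-Nd6 by 0.68 on the log2 scale (adjusted p = 0.00858). mt-Atp6 fell by 1.23 (adjusted p = 0.0166), mt-Tn by 1.28 (adjusted p = 0.00415) and mt-Tc by 1.83 (adjusted p = 0.000115), each from few counts. mt-Rnr2 fell by 1.80 (adjusted p = 0.0463), which rested on chow 9: without that library its change was -0.37 (adjusted p = 0.261). mt-Nd2 was not called in 12 of the 18 fits that left out a further library, and mt-Co1 was not called without HFD 3 or without HFD 7. mt-Atp6 passed the filter on low counts in only 11 of those 18 fits, and was called in each of the 11. With library totals alone as the scale, mt-Atp6, mt-Tn and mt-Tc were still called, and the adjusted p was 0.114 for mt-Co1, 0.212 for mt-Cytb, 0.362 for mt-Nd2, 0.175 for mt-Nd4, 0.0803 for mt-Nd6 and 0.0701 for mt-Rnr2.

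The remaining 6 genes did not pass in that fit of levels. The log2 changes were -0.29 for mt-Nd1, -0.48 for mt-Nd5, -0.33 for mt-Co2, -0.10 for mt-Co3, -1.23 for mt-Rnr1 and -0.45 for mt-Tp. HFD 6 decided 3 of them: without it mt-Nd1 fell by 0.48 (adjusted p = 0.00120), mt-Nd5 by 0.61 (adjusted p = 0.0251) and mt-Tp by 0.71 on the log2 scale (adjusted p = 6.83e-05, edgeR). Among HFD 3 to HFD 10, mt-Nd1 reached 5899 and mt-Tp 126 counts per 1000000 nuclear counts at most, against medians of 2586 and 47.5. The macrophage markers, 6 in number and all detected, summed to 309 to 618 per 1000000 nuclear counts in chow and to 720 to 1678 in HFD 3 to HFD 10. The 4 neutrophil markers, all detected, summed to 2.78 to 3.40 in chow and to 21.01 to 345 in HFD 3 to HFD 10. The 4 pancreas acinar cell markers, with Pnlip at 0 in all libraries, summed to 36.2 to 79.6 and to 7.03 to 26.7. The other marker lists overlapped between chow and HFD 3 to HFD 10. Those were the hepatocyte (96745 to 130424 against 74704 to 122046), stellate cell, endothelial cell, cholangiocyte and lymphocyte lists. The erythroid, adipocyte, striated muscle and kidney lists overlapped as well. The part of cell composition in these lower levels was not tested.

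Nuclear genes that serve the mitochondrial genome were measured in the same fits, as 8 lists with 170 tested genes. Over all 20 libraries 0 were higher (edgeR; 2 at an unadjusted p under 0.05, 1 with DESeq2) and 26 lower, with a median log2 change of -0.23, and without HFD 1 and HFD 2 there were 3 higher and 41 lower, with a median of -0.17. Of all genes tested, 13% were called higher and 7.05% lower over 20 libraries, and 17.9% and 10.4% without HFD 1 and HFD 2. With library totals alone as the scale, 0 of the list genes were called lower over 20 libraries and 11 without HFD 1 and HFD 2. Of the proteins of the mitochondrial ribosome, 10 of 48 large-subunit genes and 5 of 30 small-subunit genes were lower and 0 were higher over all 20 libraries, beside 7.05% of all genes tested. Per 1000000 nuclear counts, the large-subunit list summed to 1404 to 1879 in chow, 1195 to 1689 in HFD 3 to HFD 10, 1645 in HFD 1 and 2077 in HFD 2. The small-subunit list summed to 707 to 937, 599 to 842, 794 and 1076. HFD 2 thus lay above every chow library in both sums. Mrps27, a small-subunit protein, stood at 27.2 to 34.3 counts per 1000000 nuclear counts in chow (median 30.1), at 16.1 to 22.8 in HFD 3 to HFD 10 (median 21.04), at 11.6 in HFD 1 and at 17.8 in HFD 2. The diets did not overlap, and Mrps27 fell, with a log2 change of -0.86 (SE 0.13, adjusted p = 7.13e-05). Mrps12 fell by 0.70 (adjusted p = 0.00357) although HFD 1 (24.1) and HFD 2 (35.7) were above the chow median of 20.6. Mrpl28, of the large subunit, fell by 0.48 (adjusted p = 0.00498), although HFD 2 (51.7) was above its chow median of 46.2.

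The 7.05% of all genes called lower is the share beside which the next counts over 20 libraries stand. Of the mitochondrial aminoacyl-tRNA synthetases, which charge the tRNAs, 4 of 19 were lower and 0 higher. The summed list had a chow median of 562 counts per 1000000 nuclear counts but stood at 16470 in chow 9, 97376 in HFD 1 and 4307 in HFD 2, and the part of this in the count was not tested. Chow 9 and HFD 1 are the libraries with 20.4% and 13.3% nuclear rRNA. Vars2, Nars2 and Fars2 of the list stood at 7.15, 17.0 and 33.1 in HFD 1, so the high sum there lay in other members. Vars2, the valine enzyme, fell by 0.61 on the log2 scale (adjusted p = 0.00699). Of 18 genes that modify the rRNAs and tRNAs, 4 were lower and 0 higher. Trit1, which adds an isopentenyl group to tRNAs beside the anticodon, fell by 0.68 (adjusted p = 0.000450), and Nsun4, which methylates the small-subunit rRNA, by 0.55 (adjusted p = 0.00642). Of 21 genes of RNA processing, stability and decay, 2 were lower and 0 higher, with Hsd17b10, a part of the nuclease that cuts tRNAs at their 5′ ends, at -0.66 (adjusted p = 0.00979). Of 12 genes of genome replication and upkeep 1 was lower, so that both counts lie close to the share over all genes. Polg2, the accessory subunit of the mitochondrial DNA polymerase, fell by 1.03 (adjusted p = 0.0174), from 5.57 to 7.77 counts per 1000000 nuclear counts in chow to 1.28 to 6.29 in HFD 3 to HFD 10. None of the 10 mitochondrial transcription factors passed in either fit by edgeR, where 1 was lower at an unadjusted p under 0.05 over 20 libraries and 2 without HFD 1 and HFD 2, and DESeq2 called 1 lower in both. Tfam, which packages and activates the mitochondrial genome, stood at 30.8 to 42.8 in chow and 26.1 to 42.0 in HFD 3 to HFD 10, and Polrmt, the RNA polymerase, at 12.3 to 15.99 and 10.4 to 16.04. Of the 12 regulators of mitochondrial biogenesis 0 passed over 20 libraries with edgeR (2 higher and 1 lower at an unadjusted p under 0.05, and 1 higher with DESeq2), and 2 were higher and 3 lower without HFD 1 and HFD 2. Ppargc1a, a coactivator of mitochondrial genes, was higher by 1.63 in that fit (adjusted p = 0.0235), with a chow range of 2.58 to 6.49 and an HFD 3 to HFD 10 range of 4.11 to 81.6. The other regulators called, including the 3 lower, are not named here. Over all 8 lists, leaving out HFD 6 as well took the number called higher from 3 to 1. Not every call of a higher level therefore held without that library.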

How the data were processed

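RNA was measured in 20 liver samples, 10 per diet, grouped and numbered by the sample titles. The submitters' processing notes name fastp, a read-trimming tool, and the mm10 build, and the authors deposited raw counts and FPKM values (counts scaled by gene length and library size) for every gene. The sources used here name no aligner, counter or annotation, and the use of strand is not given. In the deposited FPKM, 27216 genes with counts each gave 1 length within a relative 1e-04. Of 55401 gene IDs, 55141 matched GENCODE M21 (GRCm38). The depth per library and counting intervals stand in the report.

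Levels were tested with edgeR 4.0.16 (R 4.3.3): a filter by filterByExpr at a count of 10 and a total of 15, TMM factors, glmQLFit with robust dispersions and diet as the term, a two-sided F test, Benjamini-Hochberg adjustment over all genes tested and a call under 0.05. Shares were tested in the same way with the chromosome M total as library size, on the whole table. Shares of counts, pair percentages and sums were described with no test. Counts per 1000000 nuclear counts exclude chromosome M and annotated nuclear rRNA. The alternatives were no filter, library totals alone, TMM from nuclear genes, other share denominators, DESeq2 1.42.0, limma 3.58.1 on log2(FPKM + 1), the replicate number as a block, fits without HFD 1 and HFD 2, and fits without each library. The fit of levels over 20 libraries and the fits of levels and shares without HFD 1 and HFD 2 were tested on simulated data. In those data no chromosome M gene was changed and no library was dominated by chromosome M. The fit of shares over 20 libraries was not simulated. Windows and sequences were read from the GENCODE M21 transcripts with Python 3.11.15, and figures were drawn with matplotlib 3.10.9.

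All rRNA and protein-coding genes are named, with the 4 tRNA genes of the highest mean count among those with a mean of at least 10, up to 3 genes of each list with the smallest p, and the copies on chromosome 1. The text prints part of the list genes. Apoe, mt-Te and the ratio of the rRNAs were picked with their values in view. The members, the lists and the tests were chosen with earlier results of these data known. Of every pair of libraries within a diet, the closest, chow 3 with chow 5, had a chi-square per gene of 10.6, where sampling noise alone gives about 1, so none was treated as a duplicate.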

Additional observations from a re-analysis of the deposited data

Results flagged for a closer look

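Within each diet, the share of each well-counted gene and the percentage of each pair were screened for a library far from the others (Dixon's criterion at 95%). Of 54 groups of values, 9 held such a library. A chance rate of about 1 in 20 holds for independent groups. These are not independent, since the shares of a library are parts of 1 total, so the 9 cannot be set against that rate.

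In chow 9, mt-Rnr1 was at 12.26% and mt-Rnr2 at 17.92% of chromosome M counts, against 1.04% to 1.73% and 1.09% to 2.03% in the other chow libraries. The shares of mt-Nd4 (3.192%, others 4.24% to 5.36%) and mt-Cytb (7.573%, others 10.5% to 12.7%) were low in the same library. Shares are parts of the same total, of which mt-Rnr1 and mt-Rnr2 together took 30.2% in chow 9. Relative to nuclear counts, mt-Nd4 and mt-Cytb in chow 9 lay inside the range of the other chow libraries. Nuclear rRNA took 20.4% of all counts in chow 9.

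In HFD 6, mt-Nd1 was at 22.64%, against 12.6% to 17.3% in the other HFD libraries. Its mt-Nd3 percentage of the pair with Gm28438 was 5.051%, against 91.0% to 98.9%, and its mt-Nd4l percentage of the pair with Gm10222 was 0%, against 66.7% to 100%.

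In HFD 1, mt-Nd4 was at 9.044%, against 3.97% to 6.02% in the other HFD libraries. The mt-Co1 percentage of the pair with Gm29216, whose reference sequence differs from mt-Co1 at 6 of 492 aligned bases, was 99.97%, against 99.99% to 100% elsewhere, with 1705 counts of Gm29216.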

How the results depend on the processing

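Over 20 libraries, 16 chromosome M genes were called higher in level. The number was 3 with DESeq2, which replaced counts as outliers in 16 of the 16 genes tested, 1 with limma on log2(FPKM + 1), 1 with the replicate number as a block, and 1 in every fit without HFD 1 and HFD 2 (edgeR, DESeq2, TMM from nuclear genes, library totals alone, replicate block). The number called lower, 0, became 6 with DESeq2. Without HFD 1 and HFD 2 it was 9 with edgeR, 8 with DESeq2, 9 with TMM from nuclear genes, 3 with library totals alone and 4 with the block. The median log2 change of the level, 6.10, became -0.35 with DESeq2, 3.04 with library totals alone, 0.77 with limma and 0.25 with the block. With HFD 1 and HFD 2 left out it was -0.47 with edgeR, with DESeq2 and with TMM from nuclear genes, -0.29 with library totals alone and -0.50 with the block. With that block mt-Co1 (adjusted p = 0.0965), mt-Cytb (0.0530), mt-Nd2 (0.0704), mt-Atp6 (0.0618) and mt-Rnr2 (0.232) were not called lower. Leaving out libraries in turn gave 1 to 16 genes higher, 0 to 11 lower and medians from -0.62 to 6.25. The low ends of the number higher and of the median and the high end of the number lower came from the fits that also left out HFD 1 and HFD 2.

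For the share of chromosome M counts, the 1 gene higher, mt-Nd3, became 0 with the replicate block over 20 libraries, where its log2 change was 4.51 (adjusted p = 0.733, edgeR). The number lower, 0, was 1 with DESeq2. Without HFD 1 and HFD 2 it was 1 with edgeR, 1 with each gene left out of the total, 2 with the protein-coding total as the denominator and 1 with the block, and 0 to 2 when libraries were left out in turn. Same-numbered chow and HFD libraries had correlations of -0.11 to 0.13 between their deviations, and chow 2 and chow 3 alone correlated best with their own number, so the numbers were not taken as pairs.

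With HFD 1 and HFD 2, the log2 changes of level turned positive in 15 genes: mt-Rnr1 5.45, mt-Rnr2 4.73, mt-Nd1 6.05, mt-Nd2 6.39, mt-Tn 4.00, mt-Tc 3.80, mt-Co1 6.05, mt-Co2 6.86, mt-Atp6 6.23, mt-Co3 6.84, mt-Nd4 6.50, mt-Nd5 5.99, mt-Nd6 6.33, mt-Cytb 6.14 and mt-Tp 4.99. The mt-Co3 level moved by 0.067 with library totals alone and by -0.20 to 0.0010 when libraries were left out in turn. Some changes of share, none of them called, changed sign: mt-Rnr1, at -0.38, was at 0.46 with DESeq2 and 0.13 with the block, mt-Rnr2, at -0.95, was at 0.086 with DESeq2, and, with the block and without HFD 1 and HFD 2, mt-Co1 was at 0.042 and mt-Co2 at -0.11. Leaving out libraries in turn gave -0.052 to 0.028 for the mt-Co1 share, -0.12 to 0.43 for mt-Co2, -0.012 to 0.074 for mt-Cytb, -0.012 to 0.20 for mt-Nd4, -0.20 to 0.045 for mt-Nd5, -0.66 to 0.47 for mt-Rnr1, -1.21 to 0.086 for mt-Rnr2 and -0.31 to 0.059 for mt-Tp. The cause was not tested for any of these. Of 208 values of single genes under the other settings, 168 kept their direction and side of the threshold.

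Of the nuclear lists, the number higher, 0, was 1 with DESeq2 and, without HFD 1 and HFD 2, 3 with edgeR, 2 with DESeq2, 3 with TMM from nuclear genes and 6 with library totals alone. The number lower, 26, was 0 with library totals alone, 2 with limma, 14 with no filter and 14 with the block. Without HFD 1 and HFD 2 it was 41 with edgeR, 52 with DESeq2, 41 with TMM from nuclear genes, 11 with library totals alone and 23 with the block. Leaving out libraries in turn gave 0 to 4 higher and 17 to 55 lower. Depth limits the run from mt-Co2 to mt-Nd4l and most tRNA genes, which rest on few counts per library.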
